A study of Mus musculus with 12 samples.

Results

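The genes described here are 10 activity-dependent immediate early genes of the mouse cortex: Arc, Npas4, Egr1, Egr2, Egr3, Egr4, Nr4a1, Nr4a3, Ier2 and Dusp1. They were chosen by name, as genes that neuronal firing switches on without new protein synthesis, at a time when earlier results of these data were known. They are 10 of the 24452 gene symbols in the files, listed there as 14 of 35840 RefSeq transcripts, and all 10 passed the filter on low counts, with 14739 genes tested in all. RNA-Seq was carried out on somatosensory cortex of male mice on postnatal day 7, all on a C57BL/6 background, in 4 groups of 3 libraries. WT mice received saline or ethanol by intraperitoneal injection, and p53 KO mice, which lack functional p53 from birth in every cell, received the same. In the text the groups are WT saline, WT ethanol, KO saline and KO ethanol. The comparisons asked what acute ethanol at the age of cortical synapse formation did to these genes in each genotype, whether the genotypes differed under saline or after ethanol, and whether the ethanol effect depended on genotype. The WT and KO pups were offspring of heterozygous parents, and brains were taken some hours after the last injection. As a model the KO is limited in that p53 is missing throughout development and in all cell types.

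Immediate early genes are transcribed within minutes of synaptic activity and calcium entry, through transcription factors such as CREB and serum response factor that already sit in the cell. Most of the genes here encode transcription factors that pass the signal on: Npas4 to inhibitory synapses and Bdnf, the EGR zinc-finger proteins to plasticity genes, and the NR4A proteins, which are orphan nuclear receptors, to metabolic and survival genes. Arc encodes a protein of the postsynaptic density that drives removal of AMPA receptors, and Dusp1 encodes a phosphatase that switches MAP kinases off again. Their messages are short-lived, so a level in frozen tissue is a record of the time shortly before collection.

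Promoter sequences from RefSeq (GRCm38.p6; 250 bases before to 50 bases after the transcription start) were found for 6 of the 10 genes: Egr2, Egr4, Npas4, Nr4a1, Nr4a3 and Dusp1. The sequences below are shown because the values of Nr4a1, Nr4a3 and Npas4 are given in most detail in the comparisons that follow, and because Egr2 and Dusp1 hold the textbook sites of serum response factor and CREB. Each reads 5′ to 3′ along the gene. Capitals mark matches on either strand to the short CREB site TGACG (also where it lies within the full CRE, TGACGTCA), to the CArG box of serum response factor, to the EGR site GCGNGGGCG or to the TATA box TATAAA.
Npas4: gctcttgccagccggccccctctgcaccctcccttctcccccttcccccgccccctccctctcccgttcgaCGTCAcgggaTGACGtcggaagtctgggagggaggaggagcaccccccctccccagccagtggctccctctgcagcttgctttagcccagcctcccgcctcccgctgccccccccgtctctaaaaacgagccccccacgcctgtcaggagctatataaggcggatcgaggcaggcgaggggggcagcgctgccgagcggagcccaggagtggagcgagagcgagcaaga
Egr2: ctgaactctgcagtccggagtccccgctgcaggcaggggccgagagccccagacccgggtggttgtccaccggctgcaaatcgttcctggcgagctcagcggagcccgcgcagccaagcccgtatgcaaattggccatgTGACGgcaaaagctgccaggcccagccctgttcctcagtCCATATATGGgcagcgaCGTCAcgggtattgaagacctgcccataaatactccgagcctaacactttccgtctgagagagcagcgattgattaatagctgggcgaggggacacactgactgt
Nr4a1: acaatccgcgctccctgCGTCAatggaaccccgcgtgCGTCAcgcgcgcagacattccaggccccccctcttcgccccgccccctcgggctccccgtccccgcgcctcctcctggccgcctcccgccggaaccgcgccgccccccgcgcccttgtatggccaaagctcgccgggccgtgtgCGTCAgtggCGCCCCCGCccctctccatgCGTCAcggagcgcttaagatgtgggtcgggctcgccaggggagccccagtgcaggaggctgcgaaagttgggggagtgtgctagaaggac
Nr4a3: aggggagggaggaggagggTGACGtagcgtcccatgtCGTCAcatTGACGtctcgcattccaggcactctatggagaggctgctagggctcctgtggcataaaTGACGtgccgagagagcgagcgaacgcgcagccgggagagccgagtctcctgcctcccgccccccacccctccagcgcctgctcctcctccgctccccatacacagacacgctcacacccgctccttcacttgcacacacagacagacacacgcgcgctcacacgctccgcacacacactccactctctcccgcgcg
Dusp1: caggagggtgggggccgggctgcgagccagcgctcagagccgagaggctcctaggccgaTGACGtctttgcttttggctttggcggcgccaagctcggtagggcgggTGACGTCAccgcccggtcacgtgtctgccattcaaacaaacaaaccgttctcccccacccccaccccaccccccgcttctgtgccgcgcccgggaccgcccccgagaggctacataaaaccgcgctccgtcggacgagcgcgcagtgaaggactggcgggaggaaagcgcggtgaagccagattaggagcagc
The windows are chr19:4989922-4990221 on the minus strand for Npas4, chr10:67537619-67537918 on the plus strand for Egr2, chr15:101266596-101266895 on the plus strand for Nr4a1, chr4:48045055-48045354 on the plus strand for Nr4a3 and chr17:26508423-26508722 on the minus strand for Dusp1. All 6 promoters held at least 1 short CREB site, a motif found in 20.8% of the 32851 promoters of the same length. Nr4a1 and Nr4a3 held 4 short sites each, Dusp1 held 3 and the other members held 2. The full CRE, which occurs in 1.79% of all promoters, was matched only in Dusp1 among the 6. The CArG box, in 1.63% of all promoters, was matched only in Egr2, and the EGR site, in 5.55% of all promoters, only in Nr4a1. No window held TATAAA, which 13.6% of all promoters hold. Only these exact letters were searched, so other forms of a TATA box were not looked for. These matches describe letters in a window and do not show binding.

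The libraries differed in ways that bear on each result. The total estimated count ran from 719735 to 17066392, with the lowest totals in WT saline replicate 1 and in the library labelled KO ethanol replicate 1, the 2 libraries whose names open with L. The mean transcript length per count was 2248 to 3338 bases in WT saline libraries, 3381 to 3842 bases in WT ethanol and 3703 to 3763 bases in KO saline libraries. In KO ethanol it was 2614 bases in the library labelled replicate 1 and 3674 and 3722 bases in the others. Trp53, the targeted gene, is no simple check here because the KO allele still yields RNA from its 3′ part: transcript NM_001127233 held 16.6% to 23.1% of the Trp53 count in 3 WT libraries and 48.3% to 70.6% in 5 KO libraries. In the other 4 libraries, WT saline replicates 1 and 2, WT ethanol replicate 3 and the library labelled KO ethanol replicate 1, the share was the same 7.01% on 51, 20, 78 and 14 counts. Whether this repeated value was measured or set in the quantification was not tested, so the genotype of the library labelled KO ethanol replicate 1 could not be checked from Trp53. Results are also given without both libraries named with L. Neuronal markers were abundant in all libraries (summed level of 5139 to 11377 CPM over 6 markers). However, WT ethanol replicate 1 stood apart in some markers. Its level of Prox1, a marker of the dentate gyrus, was 68.7 CPM against at most 9 CPM in every other library. Of the other hippocampus markers, Fibcd1 was also highest there, at 59.6 CPM. Neurod1 (26.5 CPM, against 46.5 CPM in WT saline replicate 2) and Spink8 (1.02 CPM, against 1.84 CPM in KO saline replicate 1) were not. Ttr, a choroid plexus gene, was highest there too, at 4919 CPM. It was also at 2213 CPM in KO saline replicate 1 and at 2193 CPM in KO ethanol replicate 3. Blood cell markers summed to 337 to 1319 CPM in WT saline libraries, against 50.2 to 145 CPM (WT ethanol), 35.9 to 99.3 CPM (KO saline) and 29.1 to 766 CPM (KO ethanol), and all 5 of them were lower in WT ethanol and in KO saline than in WT saline. In whole tissue, fewer cells of a type and less RNA per cell cannot be told apart.

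Levels are given as CPM, read counts scaled to library size with TMM factors, and were compared between genes per kilobase of transcript. By the median of the 12 libraries the order of these levels was Nr4a3 (9.32 CPM per kb), Egr1 (8.38), Nr4a1 (8.31), Egr3 (7.93), Dusp1 (6.17), Ier2 (4.39), Arc (1.65), Egr4 (1.5), Npas4 (1.13) and Egr2 (0.529). The ranges over libraries overlapped between every pair of neighbours in this order, so neighbouring ranks cannot be separated. The steadiest members were Egr1, with a coefficient of variation of 26% over the 12 libraries, and Dusp1, with 27.3%. Npas4 (77.9%) and Egr4 (77%) varied most, and the median gene tested varied by 45.9%. The members are compact genes: their median genomic span was 4035 bases against 23027 bases over all genes tested, and 9 of the 10 lay under that median. Their median transcript length of 3000 bases was close to the 2951 bases of all genes, and their median GC content was 55.9% against 50.4%.

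**Figure D1:**
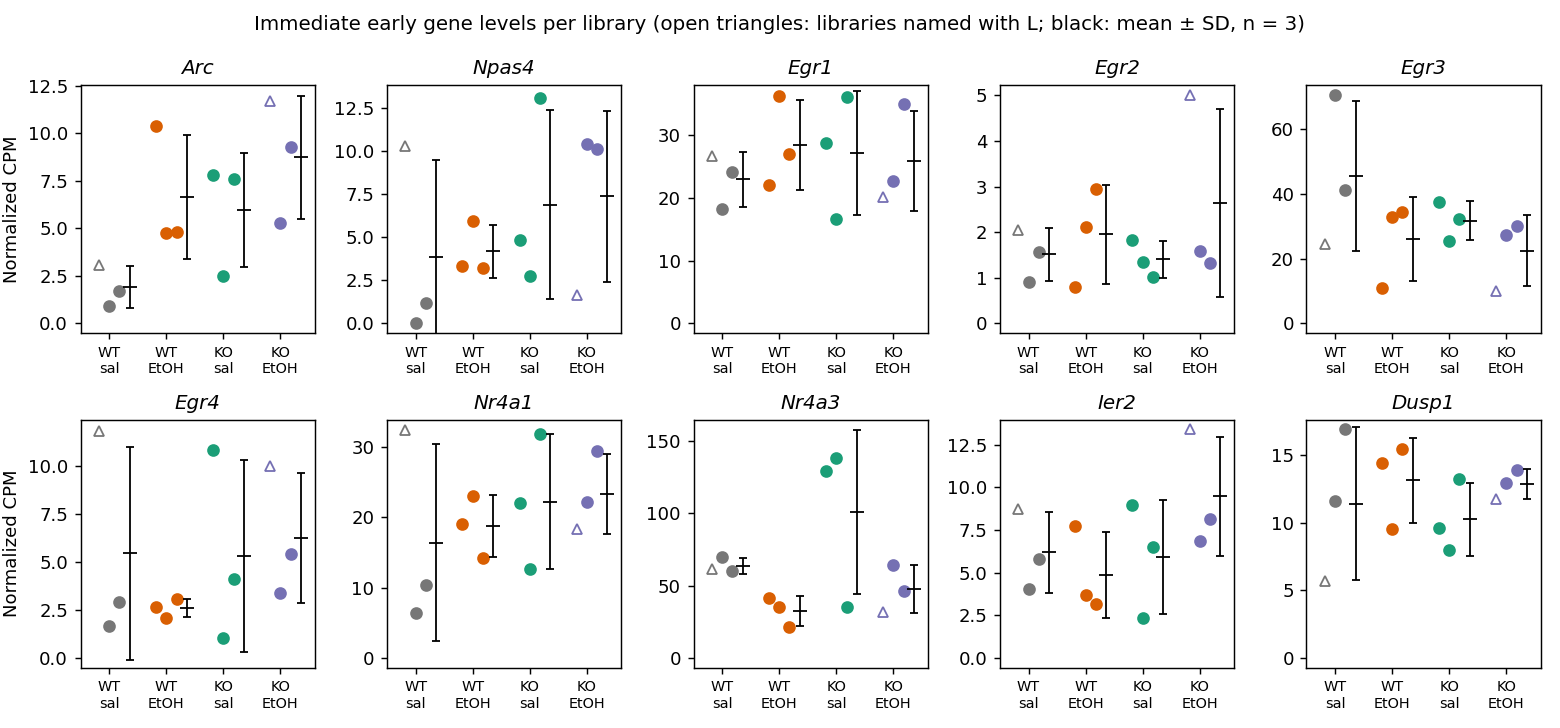
Level of each member in each library, in normalized CPM on a linear axis, by group (WT or KO, saline or EtOH, 3 libraries each); open triangles are the 2 libraries named with L and black marks are the mean ± SD, of which the lower Npas4 bar in WT saline runs below the axis. Arc is lowest in the 3 WT saline libraries except for 1 overlap with KO saline, Nr4a3 is lower in all WT ethanol than in all WT saline libraries, and WT saline replicate 1 holds the highest Egr4 and Nr4a1.

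In WT mice Arc rose and Nr4a3 fell after ethanol, and the other 8 members did not pass the test. A member was called at a Benjamini-Hochberg adjusted p under 0.30 over all genes tested, the level used in the study. The 2 members called compare with 22.5% of all genes called in this comparison (12.1% higher and 10.4% lower), so the members were called at a share close to that of genes at large. At an unadjusted p under 0.05 there was 1 member, Arc, against 18.3% of all genes, and no member had an edgeR adjusted p under 0.05, which 11 of all genes (0.0746%) had. The median log2 fold change of the members was 0.21, that of all genes 0.06, and 6 members lay above 0.

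Arc, the synaptic effector among the members, lies at chr15:74669081-74672570 (GRCm38/mm10). Its level was 3.09, 0.919 and 1.71 CPM in WT saline replicates 1 to 3 and 10.4, 4.74 and 4.82 CPM in the WT ethanol replicates. All 3 WT ethanol libraries lay above all 3 WT saline libraries. The log2 fold change was 1.93 ± 0.64 (SE, n = 3 per group), a 3.81-fold difference, with an adjusted p of 0.203 (edgeR). The counts behind it are low, at 5 to 23 reads per library in WT saline and 27 to 183 in WT ethanol. WT ethanol replicate 1, the library with the high Prox1 level, held the highest value: without it the log2 fold change was 1.44 with an adjusted p of 0.519, and the share of all genes called fell to 0.476%. Without WT saline replicate 2 it was 1.56 with an adjusted p of 0.426. Striatal markers summed to 103 to 152 CPM in WT saline and 56.4 to 809 CPM in WT ethanol, highest in replicate 2, and 3 of the 5 were called higher in WT ethanol. The part of these markers in the Arc difference was not tested.

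Nr4a3, which encodes the nuclear receptor NOR1, was at 61.2, 69.6 and 59.9 CPM in the WT saline libraries and at 41.8, 35.1 and 21.4 CPM in the WT ethanol libraries. These groups did not overlap. Its log2 fold change was -0.96 ± 0.46 (SE, n = 3 per group; adjusted p = 0.285, edgeR). The call was close to the threshold: it was lost in 9 of the 12 fits that left out 1 library, those without WT saline replicates 2 or 3, any WT ethanol library, KO saline replicates 1 or 2, or KO ethanol replicates 2 or 3, although the log2 fold change stayed between -1.18 and -0.72. Arc and Nr4a3 were the 2 members whose WT saline and WT ethanol libraries did not overlap, against 19.6% of all genes. Arc was higher and Nr4a3 lower in the WT ethanol than in the WT saline libraries, which come from different animals.

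**Figure D2:**
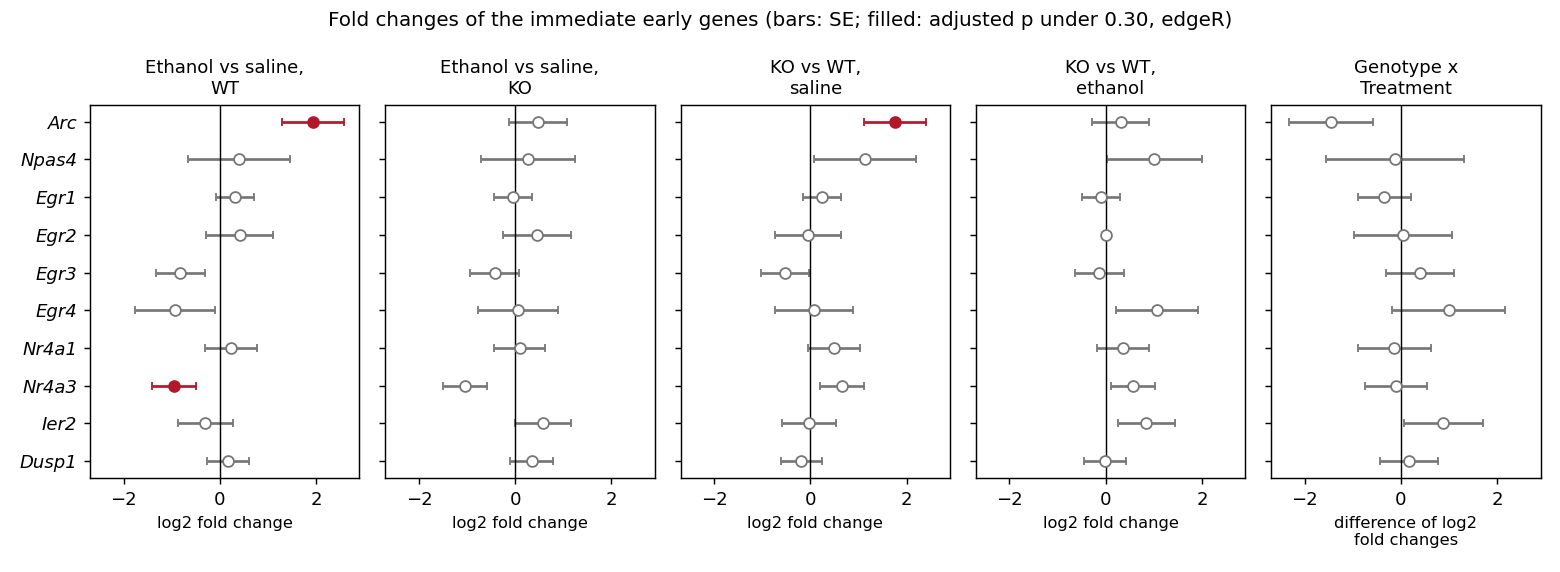
Log2 fold change of each member (x axis, with SE bars) in 4 comparisons, and the Genotype x Treatment interaction as a difference of log2 fold changes; filled red points passed an adjusted p of 0.30. Only Arc (1.93 in WT ethanol versus saline and 1.76 in KO versus WT under saline) and Nr4a3 (-0.96 in WT ethanol versus saline) are filled, and no SE could be derived for Egr2 where its value was almost 0.

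Npas4, a transcription factor gene that is switched on by calcium entry and little else, showed how far 1 library can decide a value. Its level in WT saline was 10.3 CPM in replicate 1, 0 in replicate 2 and 1.19 CPM in replicate 3. The 0 allows a level of up to 0.678 CPM (upper end of the exact 95% Poisson interval, counting error only). In WT ethanol Npas4 was at 3.34, 5.97 and 3.24 CPM, inside the WT saline range, with a log2 fold change of 0.39 ± 1.06 (adjusted p = 0.867, edgeR). Without both libraries named with L, of which WT saline replicate 1 is one, it was 2.46 ± 0.91 with an adjusted p of 0.0716. Without WT saline replicate 2 the sign changed, to -0.29, and without replicate 3 to -0.14.

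Nr4a1, which encodes NUR77, followed the same libraries. It was at 32.4, 6.43 and 10.4 CPM in WT saline and 19.1, 23 and 14.2 CPM in WT ethanol, and the groups overlapped only through WT saline replicate 1, the highest of the 12 libraries. The log2 fold change was 0.24 ± 0.54 (adjusted p = 0.835, edgeR) with all libraries and 1.07 ± 0.44 (adjusted p = 0.098) without those named with L. Nr4a1 and Nr4a3 belong to one family, and their promoters hold as many short CREB sites each. In the 10 libraries not named with L, Nr4a1 was higher and Nr4a3 lower after ethanol in WT mice. WT saline is then replicates 2 and 3 only. Neither the difference between both genes nor a part of the CREB sites in it was tested.

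Of the EGR genes, Egr1 had the steadiest level, at 18.2 to 26.7 CPM in WT saline and 22.1 to 36.2 CPM in WT ethanol. Egr3, which is also needed for muscle spindles to form, was at 24.7, 70.7 and 41.4 CPM in WT saline and at 11, 32.8 and 34.5 CPM in WT ethanol. Its log2 fold change of -0.82 ± 0.50 missed the threshold (adjusted p = 0.382, edgeR). Without the libraries named with L it was -1.18 ± 0.45 with an adjusted p of 0.0807, and without WT ethanol replicate 1, which held the lowest WT value, it was -0.46. Without WT saline replicate 2, which held the highest, it was -0.38. Egr2 was the scarcest member, with 3 to 32 reads per library and 0.793 to 2.96 CPM in the WT libraries. Egr4 was at 11.8, 1.65 and 2.9 CPM in WT saline and at 2.66, 2.11 and 3.06 CPM in WT ethanol, so its spread in WT saline came from the shallow replicate 1, where 11.8 CPM stands for 23 reads.

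Ier2, a small nuclear protein gene induced by growth factors and activity, and the phosphatase gene Dusp1 differed little. Ier2 was at 4.04 to 8.74 CPM in WT saline and 3.15 to 7.76 CPM in WT ethanol. Dusp1 was at 5.66 to 16.9 CPM and 9.49 to 15.4 CPM. Over Egr1, Egr2, Egr4, Ier2 and Dusp1 the log2 fold changes in WT mice ran from -0.93 to 0.41, with no adjusted p under 0.555 (edgeR).

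Without both libraries named with L, 5 members were called in WT mice: Arc, Npas4 and Nr4a1 higher and Egr3 and Nr4a3 lower after ethanol. The share of all genes called rose to 55.4% in that fit, so 5 of 10 members again lay near the background. The direction within the members was mixed in both fits.

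**Figure D3:**
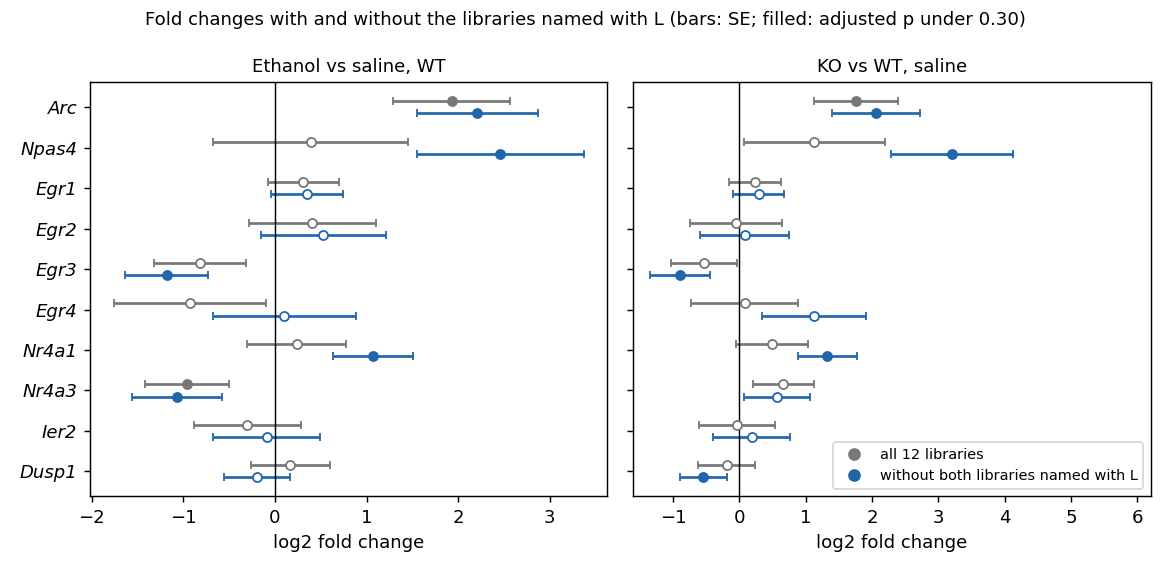
Log2 fold change with SE bars (x axis) of each member with all 12 libraries (grey) and without both libraries named with L (blue), for ethanol versus saline in WT mice (left) and KO versus WT mice under saline (right); filled points passed an adjusted p of 0.30. Npas4 moves most, from 0.39 to 2.46 on the left and from 1.13 to 3.21 on the right.

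In p53 KO mice no member passed the test for ethanol versus saline, where 0% of all 14739 genes passed. Arc was at 7.81, 2.52 and 7.6 CPM in KO saline and at 11.7, 5.29 and 9.26 CPM in KO ethanol, with overlapping groups and a log2 fold change of 0.47 ± 0.60 (adjusted p = 0.999, edgeR). The 11.7 CPM is the library labelled KO ethanol replicate 1, in which it stands for 7 reads. Without both libraries named with L the value was 0.27.

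Nr4a3 was the 1 member with an unadjusted p under 0.05 in KO mice, against 3.15% of all genes. It was at 129, 138 and 35.5 CPM in KO saline and at 31.8, 64.4 and 46.6 CPM in KO ethanol. The first 2 KO saline libraries were the highest of all 12, while the third lay within the KO ethanol range. The log2 fold change was -1.05 ± 0.46 (adjusted p = 0.999, edgeR), and -0.86 without the library labelled KO ethanol replicate 1. The unadjusted p was no longer under 0.05 without that library, without KO ethanol replicate 3, or without KO saline replicates 1 (-0.82) or 2 (-0.77). The values in WT mice (-0.96) and in KO mice (-1.05) stand side by side on different animals, and the interaction, which tests their difference, was -0.10 ± 0.65 (adjusted p = 0.965). A difference that misses the threshold does not show that both genotypes responded alike.

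For the other 8 members the log2 fold changes in KO mice ran from -0.42 to 0.58, with no p under 0.338 (edgeR). No member's KO saline and KO ethanol libraries stood fully apart, against 10.8% of all genes. Egr1 was at 16.6 to 36.1 CPM in KO saline and 20.1 to 35 CPM in KO ethanol. Ier2 was at 2.34 to 8.95 CPM and 6.87 to 13.4 CPM, and Dusp1 at 7.96 to 13.2 CPM and 11.7 to 13.9 CPM.

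Under saline, Arc was higher in KO than in WT mice, and it was the 1 member called, against 25.8% of all genes (12.4% higher and 13.4% lower). This comparison shares its WT saline libraries with ethanol versus saline in WT mice, so the same low Arc levels enter both. The KO saline library at 2.52 CPM lay below the highest WT saline library at 3.09 CPM, and the groups therefore overlapped. The log2 fold change was 1.76 ± 0.64 (SE, n = 3 per group; 3.39-fold) with an adjusted p of 0.185 (edgeR). The call was lost without WT saline replicates 2 (1.42, adjusted p = 0.466) or 3 (1.74, 0.317) and without KO saline replicates 1 (1.52, 0.432), 2 (2.13, 0.357) or 3 (1.51, 0.332). Calls over all genes fell with it, to 0.246% without WT saline replicate 2, 0.0599% without KO saline replicate 1 or 2, 9.57% without KO saline replicate 3 and 13.7% without WT saline replicate 3. Arc was also the 1 member with an unadjusted p under 0.05, against 19.6% of all genes. Again all 5 blood cell markers were lower in KO saline than in WT saline, and their part was not tested.

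Npas4 was at 4.83, 2.75 and 13.1 CPM in KO saline, and its log2 fold change against WT saline was 1.13 ± 1.06 (adjusted p = 0.566, edgeR) with all libraries and 3.21 ± 0.92 (adjusted p = 0.0257) without those named with L. Nr4a1 was at 22.1, 12.7 and 31.9 CPM in KO saline, with 0.49 ± 0.54 (adjusted p = 0.63) and 1.33 ± 0.44 (adjusted p = 0.0444) in the same fits. Both genes were thus higher in every KO saline library than in WT saline replicates 2 and 3. Against WT saline replicate 1, Npas4 was higher in 1 of the 3 and Nr4a1 in none. Egr3 was at 37.5, 25.5 and 32.4 CPM, with a log2 fold change of -0.53 ± 0.50 (adjusted p = 0.57) that became -0.89 ± 0.45 (adjusted p = 0.165) without the libraries named with L. Without TMM factors Egr3 was at 0.07, but the median of all genes was then 0.49 rather than 0.04, so Egr3 lay below the median gene under both scalings.

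Without the libraries named with L, Arc, Npas4 and Nr4a1 were called higher and Egr3 and Dusp1 lower in KO saline, 5 of 10 members against 56.4% of all genes. The Dusp1 levels overlap closely (7.96 to 13.2 CPM in KO saline, 11.6 and 16.9 CPM in the remaining WT saline libraries), and its adjusted p was 0.29. Nr4a3 was not called, at a log2 fold change of 0.66 ± 0.46 (adjusted p = 0.429, edgeR). When those libraries were left out and trends with length and GC were removed, it turned to -0.09. No member separated the KO saline from the WT saline libraries fully, against 22.9% of all genes. Egr1, Egr2, Egr4, Ier2 and Dusp1 had log2 fold changes of -0.19 to 0.24 with all libraries.

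After ethanol, no member differed between KO and WT mice by the test, where 0% of all genes passed. None had an unadjusted p under 0.05, against 3.24% of all genes. Arc was at 5.29 to 11.7 CPM in KO ethanol and 4.74 to 10.4 CPM in WT ethanol, a log2 fold change of 0.31 ± 0.60 (adjusted p = 0.986, edgeR). Nr4a3 had a log2 fold change of 0.57 ± 0.46 (adjusted p = 0.982). Egr4 was the 1 member whose groups did not overlap, at 3.39 to 10 CPM in KO ethanol and 2.11 to 3.06 CPM in WT ethanol, against 12.7% of all genes, and its p was 0.228. The other members overlapped, and the median log2 fold change over the members was 0.33, against -0.03 over all genes.

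The Genotype x Treatment interaction asks whether ethanol acted differently in both genotypes. No member was called, against 11.1% of all genes, and none had an unadjusted p under 0.05, against 15.2%. Arc had the lowest value, an interaction of -1.46 ± 0.87 on the log2 scale (adjusted p = 0.441, edgeR), with the smaller ethanol difference in KO mice. Without both libraries named with L it was -1.94 ± 0.87 and passed with an adjusted p of 0.226, where 28.9% of all genes did. The other 9 members ran from -0.35 to 0.99 with all libraries. The order of group means for Arc was KO ethanol (8.75 ± 3.24 CPM, SD, n = 3), WT ethanol (6.64 ± 3.22), KO saline (5.97 ± 3) and WT saline (1.9 ± 1.1), so WT saline stood below the other groups, which lay within 1 SD of each other.

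The members did not move as a block across libraries. Over the 12 libraries, the log2 CPM of Nr4a1 had a Pearson r of 0.75 with the mean of the other members, Egr4 of 0.69, Npas4 of 0.62, Arc of 0.59, Egr1 of 0.57 and Ier2 of 0.53. Egr2 had 0.10, Dusp1 -0.22, Nr4a3 -0.39 and Egr3 -0.43. These values share library depth and composition and are given as a description. Over the 10 libraries not named with L the same order of signs held except for Dusp1, which was at 0.01. The genes most like the mean of the members, among those with a mean count of at least 10, were Rasal3 (r = 0.93), Junb (0.89), Dyrk1b (0.88), Nle1 (0.87) and Slc9a3r2 (0.87), over 12 libraries. Junb is itself an immediate early gene of the AP-1 family, and Rasal3 rests on a mean of 12.1 reads.

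Further immediate early genes, from a list of 42 of which 39 were tested, gave 8 called higher and none lower after ethanol in WT mice. That is 20.5% of the list, against 22.5% of all genes called (12.1% higher and 10.4% lower). Those with the smallest p were Fos, a subunit of AP-1, with a log2 fold change of 2.11 ± 0.77 (adjusted p = 0.212, edgeR), Sik1, a kinase that restrains CREB coactivators, with 1.90 ± 0.71 (0.215), Gadd45g, a stress-response gene, with 2.17 ± 1.02 (0.273), and Nr4a2, the remaining NR4A receptor gene, with 1.60 ± 0.75 (0.273). Mean Fos levels were 1.88 ± 1.63 CPM in WT saline and 9.19 ± 8.12 CPM in WT ethanol (SD, n = 3), with groups that did not overlap. The list median was 0.36 against 0.06 over all genes. Without the libraries named with L, 11 were called higher and 3 lower, where 55.4% of all genes were called. In KO mice none was called, where 0% of all genes were, and Ier3 had the smallest p (1.24 ± 0.62, adjusted p = 0.999, edgeR). Under saline, Dusp5, a phosphatase of ERK, was the 1 gene called higher in KO mice (2.12 ± 0.95, adjusted p = 0.24), on mean levels of 1.24 CPM against 0.173 CPM.

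Later effectors of activity, 20 genes all tested, had 6 called higher and 1 lower after ethanol in WT mice, 35% of the list against 22.5% of all genes. Penk, which encodes the opioid precursor proenkephalin and is abundant in striatum, rose by 2.65 ± 0.85 on the log2 scale (adjusted p = 0.198, edgeR). Its means were 16.4 ± 15.8 CPM in WT saline and 105 ± 83.7 CPM in WT ethanol, with overlapping groups. Sorcs3, a sorting receptor gene, rose by 0.97 ± 0.34 (0.208) and Rasgrp1, a Ras activator gene, by 0.96 ± 0.41 (0.242). Crh, which encodes the stress peptide corticotropin-releasing hormone, fell, with a log2 fold change of -1.47 ± 0.53 (0.209). With length and GC trends removed the calls of Sorcs3 (0.52, adjusted p = 0.339), Rasgrp1 (0.59, 0.427) and Crh (-0.94, 0.38) were lost, and that of Penk (3.23, 0.093) was kept. In KO mice none was called, where 0% of all genes were. Penk had the smallest p there, with a log2 fold change of 2.10 ± 0.85 (adjusted p = 0.999, edgeR) and overlapping groups. Under saline, Sorcs3 (0.98), Rasgrp1 (1.13) and Inhba (2.30), the gene of an activin subunit, were called higher in KO than in WT mice, 15% of the list against 25.8% of all genes. With the trends removed Inhba (2.88, adjusted p = 0.177) passed, and Sorcs3 (0.47, 0.396) and Rasgrp1 (0.66, 0.406) did not.

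Regulators upstream of the members showed the smallest adjusted p among the lists. Crebbp, which encodes the CREB-binding coactivator CBP, averaged 5.62 ± 1.9 CPM in WT saline mice. The means were 24.5 ± 12.6 CPM for WT ethanol, 22 ± 3.79 CPM for KO saline and 19.6 ± 6.86 CPM for KO ethanol (SD, n = 3). Its log2 fold change was 2.18 ± 0.47 after ethanol in WT mice (adjusted p = 0.0967, edgeR) and 2.02 ± 0.46 in KO versus WT mice under saline (adjusted p = 0.147). WT saline was again the group that stood apart from the others. Crebbp is a long transcript, and with length and GC trends removed the values were 1.39 and 1.28 (adjusted p of 0.089 and 0.14). Of the 39 regulators tested, 6 were called higher and 1 lower after ethanol in WT mice (17.9%, against 22.5% of all genes), with the calcium-signalling kinase genes Camk2d (1.54 ± 0.50), Camkk1 (1.05 ± 0.40) and Camk2a (1.02 ± 0.43) next after Crebbp. Under saline, 5 were called higher in KO mice and 1, Mapk3, which encodes ERK1, lower (-0.80 ± 0.37, adjusted p = 0.247), 15.4% of the list against 25.8% of all genes. With the trends removed, Mapk3 (-0.58, adjusted p = 0.358) and Rps6ka3 (0.34, against 0.93 before; 0.565) no longer passed.

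Partners and brakes of the members, 11 genes, had 3 called higher and none lower after ethanol in WT mice. That is 27.3% of the list against 22.5% of all genes (12.1% higher and 10.4% lower). Rxrg, a retinoid receptor gene whose protein pairs with some NR4A receptors, had 4.16 ± 1.23 (adjusted p = 0.185, edgeR). The others were Arnt, the gene of a PAS-domain partner (1.04 ± 0.44, 0.241), and Rnf216, a ligase gene for Arc protein (0.78 ± 0.38, 0.286). With the trends removed Rnf216 no longer passed (0.52, adjusted p = 0.36). Rxrg levels were 30.5 ± 36.7 CPM in WT ethanol and 1.49 ± 1.24 CPM in WT saline, a spread as wide as the mean. Its WT groups overlapped, as did those of Arnt. Ube3a, another ligase gene, had the smallest p of this list in KO mice (-1.45 ± 0.64, adjusted p = 0.999). The 10 genes that respond to handling and stress had none called after ethanol in either genotype, against 22.5% (WT) and 0% (KO) of all genes. Under saline 1 was higher in KO mice, Zbtb16 (1.54 ± 0.74), and 3 were lower. Dnajb1 (-0.74 ± 0.30, adjusted p = 0.211, edgeR), a heat shock gene, was first among the lower genes. Together these were 40% of a list of 10 against 25.8% of all genes. Zbtb16 (1.26, adjusted p = 0.332) did not pass with the trends removed. After ethanol none of the genes in these 5 lists was called between genotypes, where 0% of all genes were. All of these list counts rest on the same 12 libraries, in which 0.476% of genes were called for ethanol in WT mice without WT ethanol replicate 1 and 1.3% without WT saline replicate 2. For KO versus WT mice under saline it was 0.0599% without KO saline replicate 1 or 2 and 0.246% without WT saline replicate 2.

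**Figure D4:**
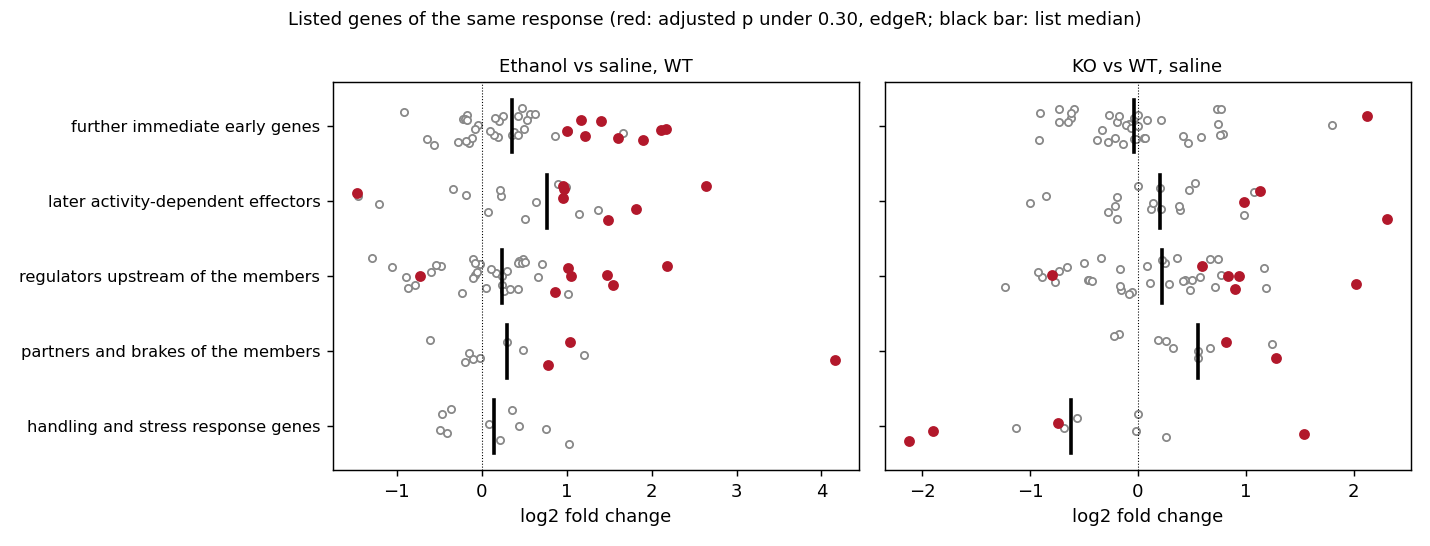
Log2 fold change (x axis) of every tested gene in the 5 lists for ethanol versus saline in WT mice (left) and KO versus WT mice under saline (right); red points passed an adjusted p of 0.30 and black bars are list medians. The further immediate early genes have 8 red points on the left, all above 0, and 1 on the right.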

How the data were processed

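RNA-Seq libraries of somatosensory cortex were examined from 4 groups of 3 (WT or p53 KO mice, saline or ethanol), with groups taken from the sample labels and replicate numbers in accession order. The authors filtered reads by quality, aligned them to mm10 (TopHat, Bowtie2) and used Partek Flow to quantify the transcripts of RefSeq. The deposited estimated counts are unscaled and partly fractional (44.9% of the values above 0 are whole numbers). The authors also deposited RPKM values, whose sorted values nearly coincide between libraries (99.7% of 20504 ranks within 0.1%), so that they were quantile normalized, and these were used in alternatives only.

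Counts were summed per gene symbol and rounded. Tests used edgeR 4.0.16 under R 4.3.3, its default low-count filter, TMM factors and the two-sided quasi-likelihood test with 1 mean per group. Library totals ran from 719735 to 17066392 (median 10586860) and limit precision at low counts. P-values were adjusted by Benjamini-Hochberg over the 14739 genes tested. SEs were obtained from each gene's F statistic. P-values rest on the spread between samples within groups, estimated over all 4 groups together, with 3 samples per group. Alternatives were DESeq2 1.42.0, limma 3.58.1 on the log2 RPKM with a pseudocount of 1 or of 0.1, other filters, scalings and units, the library name letter, trend removal by splines on transcript length and GC content (98.9% of genes had a value), and leaving out each library. The scripts were tested on simulated data. Summaries used Python 3.11.15.

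The members and lists were chosen with earlier results of these data known. All 10 members are named in every comparison, and from each list the called genes with the smallest p, at most 4, or the 1 with the smallest p where none was called, of which not every one is printed. Prox1 and Ttr were singled out after their values were seen. The level of 1 marker gene is not reported here.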

Additional observations from a re-analysis of the deposited data

Results flagged for a closer look

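No member of the set differed between genotypes in its response to ethanol by the test with all libraries. Among the listed genes of the same response, 6 did, each by an interaction term with an edgeR adjusted p under 0.30. They are 15% of the later effectors and 7.69% of the upstream regulators, with none in the other 3 lists, against 11.1% of all genes. Over all genes 0% passed without KO saline replicate 1 or 2, without WT ethanol replicate 1, or with the letter of the library name as covariate. The interaction, coded as the KO ethanol effect less the WT ethanol effect on the log2 scale, was -2.29 for Crebbp, -1.94 for Camk2d, -1.36 for Rps6ka3 and -1.24 for Sorcs3. It was 2.64 for Cort, which encodes the interneuron peptide cortistatin, and 1.75 for Crh. With length and GC trends removed none of the 6 passed, with adjusted p of 0.398 to 0.879 (edgeR), where 0.654% of all genes passed. Without both libraries named with L all but Rps6ka3 (adjusted p = 0.349) did, where 28.9% of all genes passed. Groups of 3 libraries are too small for a test of single outlying samples.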

How the results depend on the processing

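The members called were recounted under 12 alternatives and with each library left out in turn. For ethanol versus saline in WT mice the count of 2 became 1 without TMM factors or with at least 1 count in any library, 0 with at least 10 counts in every library (which tests only Egr1, Nr4a1 and Nr4a3), with limma at either pseudocount (1 or 0.1) or with only the groups compared, 3 (Arc, Egr3 and Nr4a3) with the letter as covariate or with RefSeq transcripts as the unit, and 5 without both libraries named with L, with or without trend removal (with it, an alternative added after seeing the data). Calls over all genes moved too, from 22.5% to 2.42% and 1.26% with limma, 0.278% with only the groups compared, where Arc was at 1.86, and 55.4% without those libraries. Leaving out 1 library gave 0 to 5, where 0.476% to 48.7% of all genes were called. For KO versus WT mice under saline the count of 1 became 0 with at least 10 counts in every library and with limma, 2 without TMM factors, with the letter as covariate or with RefSeq transcripts as the unit, and 5 and 4 without the libraries named with L, without and with trend removal. Of all genes, 56.4% and 52.9% were called in the fits without those libraries, against 25.8% in the main fit. Leaving out 1 library gave 0 to 4, where 0.0599% to 50.4% of all genes were called. The interaction count of 0 became 1 without the libraries named with L, with or without trend removal, where 15.9% and 28.9% of all genes were called. For the interaction, leaving out 1 library gave 0 to 2, where 0% to 33.8% of all genes were called. The other 2 comparisons gave 0 members under every alternative run.

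Signs changed as follows. Arc in KO versus WT mice after ethanol was -0.13 with trends and the libraries named with L removed. Egr3 in KO versus WT mice under saline was 0.07 without TMM factors, where the median of all genes was 0.49, and Nr4a3 there was -0.09 with trends and those libraries removed. The Nr4a3 interaction was 0.09 and 0.17 with limma at pseudocounts of 1 and 0.1, 0.13 with the letter as covariate, 0.18 without the libraries named with L, and 0.67 and 0.95 with trends removed, with and without them, and leaving out 1 library gave -0.43 to 0.19. In WT mice Npas4 ranged from -0.29 to 2.47 and Nr4a1 from -0.16 to 1.09 when 1 library was left out. Over all 50 pairs of member and comparison, 31 changed sign in at least 1 fit. The cause was not tested. Depth limits Arc, Egr2, Egr4 and Npas4 most. No paired analysis was possible because the labels give no replicate numbers, and those used here follow accession order and pair nothing.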
